A study of Homo sapiens with 2 samples.

Results

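The short arm of chromosome 9 was followed through 59 genes, listed from KANK1 near the telomere to SHB near the centromere. Each member was taken as the probe sets annotated to that gene alone, out of 19775 genes named on the array. The list was selected on values of these same 2 arrays, because genes of chromosome 9 stood higher in 1 of the 2 cell lines. The ratios below are therefore a description, with no test, and support nothing beyond themselves.

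Both lines derive from SK-N-MC, a human line that the submitters call a neuroepithelioma line and that is now placed in the Ewing tumour family. The first carried pCMV-Script with the human melanotransferrin cDNA (hyperexpression clone 4, here the clone). The second carried pCMV-Script alone (vector control 1, here the control). Each was measured on 1 Affymetrix U133 Plus 2.0 array, so no value has a replicate SD and no p-value can be given. Each group is a single stably transfected line, so effects of melanotransferrin and differences between lines cannot be told apart. In RNA from a whole culture, more RNA per cell and more cells with that RNA cannot be told apart either.

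Genes along a chromosome arm have unrelated functions but share the number of copies of that arm in a cell. When an arm is gained or lost in a tumour line, many of its transcripts usually shift together by a modest factor, while single genes can be set by their own regulation. The short arm of chromosome 9 is known in cancer for loss of the neighbouring CDKN2A, CDKN2B and MTAP genes and for gain of the segment that holds JAK2 and CD274. It also carries the type I interferon genes. DNA was not measured here.

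The transfected gene, MELTF on chromosome 3, read 4449 in the clone and 18.4 in the control on 1 of its 4 probe sets, at least 21.4-fold higher against the background floor described next. Of its other probe sets, 1 read 209.3 in the clone and 245.8 in the control, and 2 were under that floor on both arrays. Signals are linear intensities that the authors scaled to the same trimmed mean on each array. A signal under 208, set from genes of smell, taste and hair, was treated as background; 47.3% of all probe sets lay above this floor on the clone array and 50.8% on the control array. Spiked control transcripts added at hybridisation were lower on the clone array (median ratio 0.706 over 18 probe sets), and poly-A spikes were higher (1.53 over 24). Log2 ratios are therefore also given relative to the median of all 10795 genes above the floor on both arrays, which was 0.0089. Of 9 Ewing tumour markers analysed, all 9 were above the floor on both arrays, with summed signals of 147897 in the clone and 132230 in the control. Markers of other cell types above the floor on at least 1 array numbered 1 of 5 for leukocytes (PTPRC; CD3E, CD14, ITGAM and LCP2 were under it), 2 of 5 for epithelium, 2 of 4 for endothelium, 4 of 5 for fibroblasts and 2 of 4 for melanocytes. The summed signal of the fibroblast list was 36239 in the clone and 40957 in the control, and that of the leukocyte list 14179 in the clone and 15956 in the control. The epithelial sums were 10741 in the clone and 10570.0 in the control, the endothelial sums 695.7 and 762.6 and the melanocyte sums 734.7 and 653.0 in the same order. Their part in the result was not tested.

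As a set, the short arm members were moderately higher in the clone. Of the 59, both signals cleared the floor for 52, 1 signal did for 1 member, and neither did for 6. Of those 52, 50 read higher in the clone and 2 lower, and their median log2 ratio was 0.49, a 1.40-fold difference. The quartiles of the members lay at 0.31 and 0.72, and those of all genes at -0.20 and 0.21. Relative to all genes the members' median was 0.48.

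Size separated the members less than direction did. At least 1.5-fold higher were 22 of the 53 members above the floor on at least 1 array (41.5%), against 5.38% of 12663 genes; VCP at 1.52-fold was the last inside that line and DCTN3 at 1.45-fold the first outside. That count was 15 where probe sets were summarised by their median. It was 48 when the arrays were scaled on the hybridisation spikes and 0 when they were scaled on the poly-A spikes. No share of all genes was computed under these settings. At least 1.5-fold lower were 0 members, against 8.43% of genes. Above the floor on at least 1 array were also 67 short arm genes outside the list. Of these, 14 (20.9%) were at least 1.5-fold higher and 2 (2.985%) at least 1.5-fold lower. Only SLC1A1 was at least 2-fold higher, 1 of 53 (1.89%) against a background of 1.21%, and 0 were at least 2-fold lower against 1.9%. Of the 67 genes outside the list, 4 (5.97%) were at least 2-fold higher and 0 at least 2-fold lower. Above the all-gene median were 50 of 52 members (96.2%), where 50.0% of genes lie by construction. No share here is a test, since ratios of these arrays picked the arm.

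**Figure D1:**
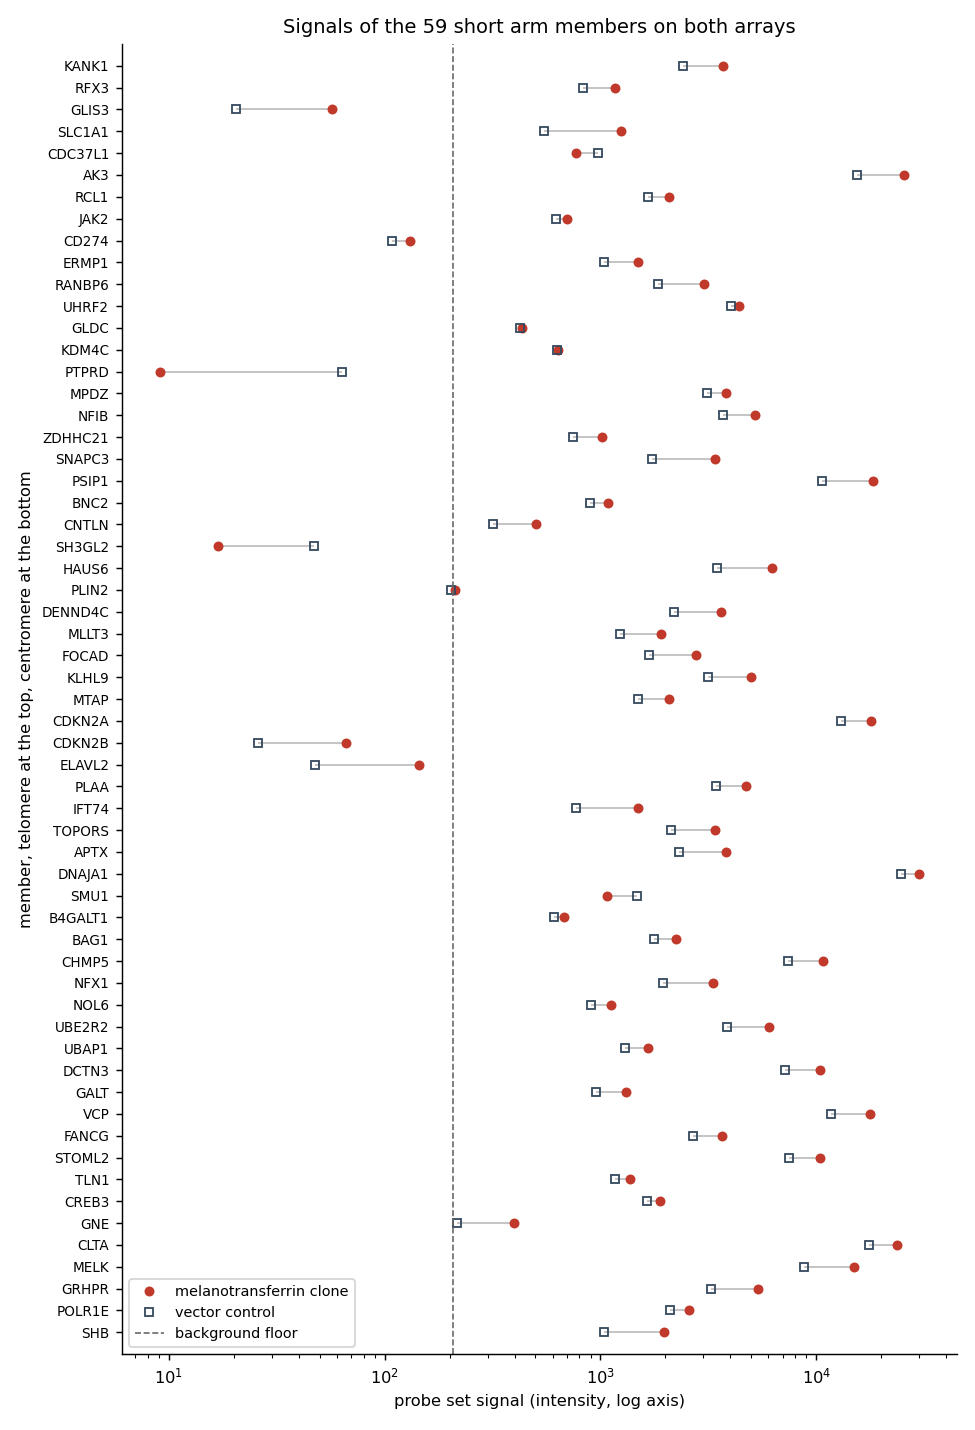
Probe set signals (log axis) of the 59 members in the melanotransferrin clone (filled circles) and the vector control (open squares), 1 array each, ordered from telomere to centromere; the dashed line is the floor of 208. The clone's signal lies to the right of the control's for 50 of the 52 members with both signals above it.

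The members were higher as a set near the telomere, in the middle and near the centromere. The 20 members nearest the telomere, from KANK1 to PSIP1, had a median of 0.47 relative to all genes over the 17 measured on both arrays. For the next 20, BNC2 to B4GALT1, it was 0.64 over 16, and for the 19 nearest the centromere, BAG1 to SHB, 0.47 over 19. As deposited, single log2 ratios within these stretches ran from -0.34 to 1.18, from -0.45 to 0.94 and from 0.21 to 0.92, so the stretches overlapped. Adding the genes that are not listed but lie between KANK1 and SHB gave 108 genes in order. A running median over 11 neighbouring genes stayed above the all-gene median in 98 of 98 windows. Neighbouring windows share most of their genes and hold the selected members, and no such count was made for other chromosomes. The running median was highest, at 0.72, from SNAPC3 to FOCAD. It was lowest, at 0.047, in the window centred on STOML2, close to the all-gene median of 0.0089.

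The listed genes are not the whole arm. The 56 other short arm genes above the floor on both arrays had a median of 0.35 relative to all genes, and 43 of them lay above the all-gene median. On the remainder of chromosome 9, from SHB to the end of the long arm, the median over 337 genes was 0.48. With no floor it was 0.32 over 573 genes and that of the other short arm genes 0.075 over 141, where the members' median was 0.51. Over all 445 measured genes of chromosome 9 it was 0.47, the highest of the 22 autosomes and X. Chromosome 13 was next at 0.13, and the others ran from -0.074 for chromosome 22 to 0.033 for chromosome 18.

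**Figure D2:**
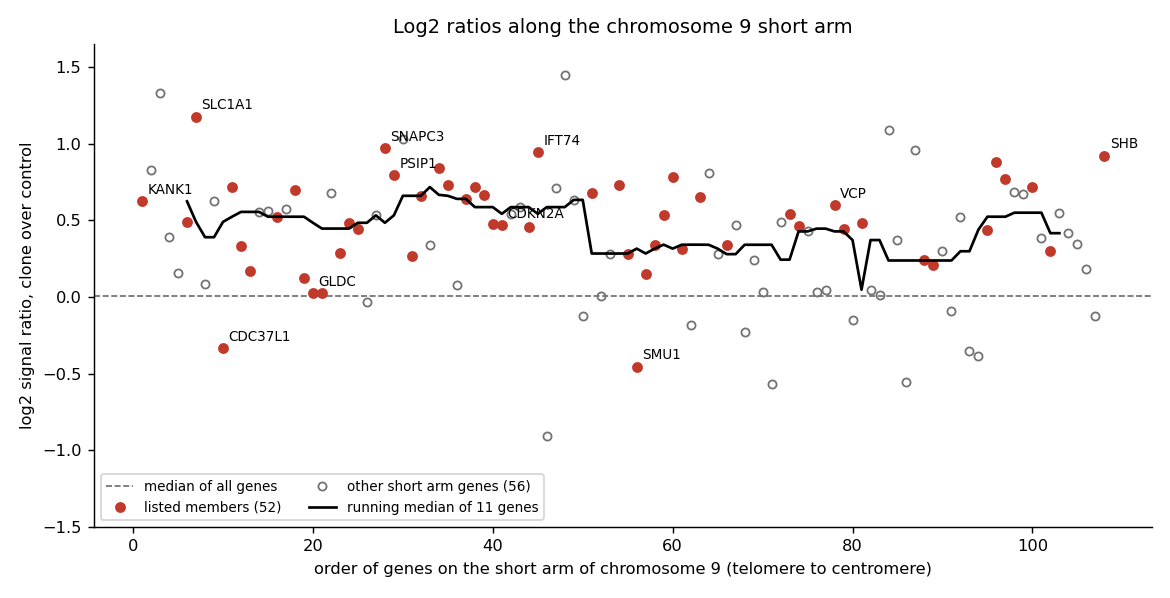
Log2 signal ratio, clone over control, of the 108 short arm genes above the floor on both arrays, in their order from telomere to centromere. Filled circles are the 52 listed members and open circles the 56 other genes. The solid line is the running median of 11 genes and the dashed line the median of all genes. The running median stays above the dashed line along the arm, though only by little near STOML2.

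**Figure D3:**
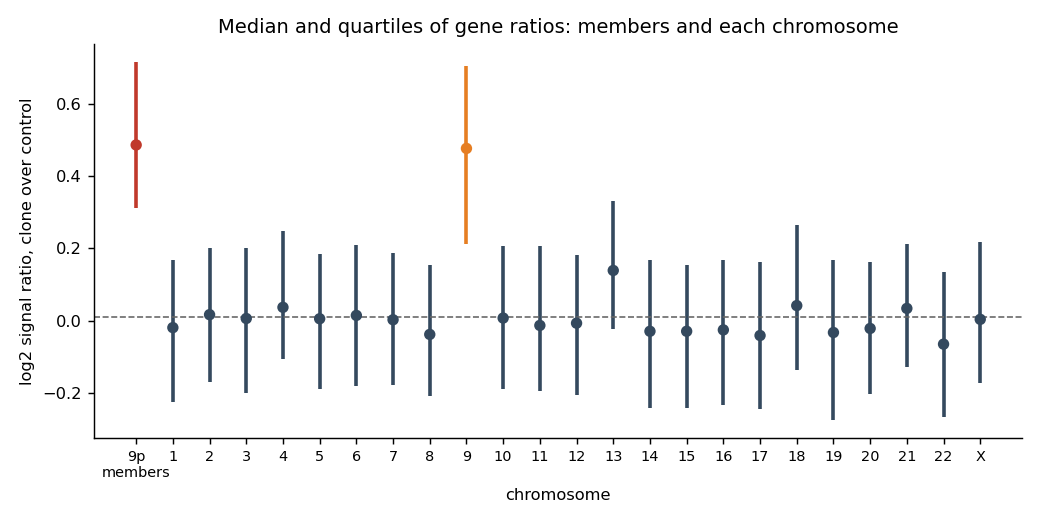
Median (point) and quartiles (bar) of log2 signal ratios, clone over control, for the 52 measured members and for all measured genes of each chromosome; the dashed line is the median of all genes. The members and chromosome 9 stand apart, with medians of 0.49 and 0.48.

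Members fell into 5 groups by role, a grouping made after the values were known. Each group was shifted the same way: the median log2 ratio was 0.33 for transcription and RNA (15 measured on both arrays), 0.69 for cell cycle, centrosome and DNA repair (6), 0.52 for protein turnover, chaperones and traffic (17), 0.48 for metabolism and mitochondria (7) and 0.62 for signalling, adhesion and membrane (7). The ranges of these groups overlapped. At least 1.5-fold higher were 5, 4, 6, 3 and 4 members, in the same order.

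Among genes of transcription, SNAPC3, a subunit of the complex that activates small nuclear RNA genes, read 3405 in the clone and 1736 in the control, 1.96-fold higher. Its other 3 probe sets were higher too, by less, with log2 ratios of 0.27 to 0.57. PSIP1, a chromatin-bound coactivator, read 18353 in the clone and 10598 in the control, 1.73-fold higher. Its next probe sets read 9730 in the clone against 5631 in the control, and 2613 against 1447. These 3 PSIP1 probe sets thus gave nearly the same log2 ratio, from 0.79 to 0.85, while another one was under the floor in the clone, at 155.9 against 241.1 in the control. NFX1, a zinc-finger factor first described at MHC class II promoters, read 3337 in the clone and 1940.3 in the control on the probe set used. Of its other probe sets, 3 lay between -0.085 and 0.074 on the log2 scale and 1 read 345.9 in the clone and 185.1, under the floor, in the control, so the NFX1 probe sets disagreed in size. TOPORS, a ubiquitin and SUMO ligase that binds topoisomerase I, read 3389 in the clone and 2123 in the control on its only probe set, 1.60-fold higher. MLLT3, a component of the super elongation complex, read 1919 in the clone and 1232 in the control, and its 3 probe sets ran from 0.64 to 0.88.

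Other transcription factors of the arm varied. NFIB, a nuclear factor I protein of lung and brain development, had log2 ratios of 0.16 to 0.48 over 5 probe sets, and RFX3, a regulator of ciliary genes, 0.49 on its main probe set and -0.35 on another. BNC2, a basonuclin zinc-finger protein, gave 6 measured probe sets, from 0.0062 to 0.32, each below the median of the arm's genes, 0.46. CREB3, a transcription factor anchored in the endoplasmic reticulum, stood at 0.21. The chromatin regulators UHRF2, which binds modified cytosine, and KDM4C, a histone demethylase, stood at 0.13 and 0.028. Both differences were smaller than the pooled SD between probe sets of a gene, 0.35 on the log2 scale.

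For RNA polymerase and RNA processing, POLR1E, a subunit of RNA polymerase I, had a log2 ratio of 0.30, and RCL1, a ribosome assembly factor, 0.33. The other POLR1E probe sets stood at 0.72 and -0.098. NOL6, a nucleolar RNA-associated protein, stood at 0.31 on its main probe set. Its other 3 probe sets were lower in the clone, at -0.021, -0.45 and -0.48. SMU1, a spliceosome component, read 1078 in the clone and 1477 in the control, 0.730 times the control and the lowest member. Its other probe sets went the other way, at 1291 in the clone against 1185 in the control and at 353.0 against 267.2. The direction for SMU1 thus depends on the probe set.

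Every measured gene of cell division and repair was higher on the probe set used. MELK, a kinase of dividing cells, read 14929 in the clone and 8769 in the control, 1.70-fold higher. HAUS6, a subunit of the augmin complex that seeds spindle microtubules, read 6235 in the clone and 3479 in the control, and its 3 probe sets ran from 0.53 to 0.84. CNTLN, a linker protein of centrioles, read 502.3 in the clone and 318.0 in the control, 1.58-fold higher. Of its other probe sets, 2 were higher and 1 read 145.8 in the clone, under the floor, and 234.8 in the control. MELK, HAUS6 and CNTLN, the mitotic and centrosomal genes, were all past 1.5-fold. FANCG, of the Fanconi anaemia core complex, had a log2 ratio of 0.45.

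APTX, which removes abortive ligation products from broken DNA, read 3828 in the clone and 2313 in the control, 1.66-fold higher. It is read divergently from DNAJA1, a cytosolic co-chaperone of HSP70, and their annotated starts lie 153 bases apart. DNAJA1 read 30079 in the clone and 24751 in the control, 1.22-fold higher. The probe sets of APTX gave 0.21 and 0.73 and those of DNAJA1 0.25 and 0.28, so the ranges of these neighbours overlapped. Another APTX probe set went the other way, at 29.0 in the clone, under the floor, and 223.8 in the control. The APTX window is shown because 252 of its 300 bases also lie in the window of DNAJA1, on the other strand. It lies at chr9:33025071-33025370 on the minus strand of GRCh38.p14 (RefSeq), running from 250 bases before the start to 50 after it. Capitals mark GGGCGG or its reverse complement and CCGGAAG.
APTX: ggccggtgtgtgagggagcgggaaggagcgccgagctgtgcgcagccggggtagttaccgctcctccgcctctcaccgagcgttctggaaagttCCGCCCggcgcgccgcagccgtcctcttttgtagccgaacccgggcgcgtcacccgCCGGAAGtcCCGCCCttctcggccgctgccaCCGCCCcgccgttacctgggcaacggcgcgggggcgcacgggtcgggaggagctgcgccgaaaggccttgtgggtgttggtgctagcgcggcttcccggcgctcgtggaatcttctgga

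CDKN2A encodes an inhibitor of CDK4 and CDK6 and, from another first exon, the MDM2 inhibitor ARF. It read 18018 in the clone and 13040 in the control on a probe set with shared sequences, 1.38-fold higher. A second probe set read 4380.4 in the clone and 2544 in the control, a log2 ratio of 0.78, and another lay under the floor on both arrays. The neighbouring CDKN2B, a related inhibitor, was under the floor on both of its probe sets, at 66.1 and 3.1 in the clone and 25.9 and 12.9 in the control. MTAP, the methionine salvage enzyme beside them, read 2073 in the clone and 1491 in the control. Its 4 probe sets with both signals above the floor ran from -0.60 to 0.48, and another read 202.8 in the clone, under the floor, and 301.8 in the control. Signal for CDKN2A and MTAP was thus present in both lines, and none above background was seen for CDKN2B.

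The start windows of these adjacent inhibitors are shown because 1 was bright and the other under the floor. That of CDKN2A, at its outermost annotated start, is chr9:21995275-21995574 on the minus strand, with 63.3% G and C and 28 CpG sites. That of CDKN2B is chr9:22009256-22009555 on the minus strand, with 67.3% and 25. Their base composition was close, and GGGCGG or its reverse complement, in capitals, occurred only in that of CDKN2B, 2 times. Which annotated start gave the CDKN2A signal was not examined, so this window need not be that of the bright transcript.
CDKN2A: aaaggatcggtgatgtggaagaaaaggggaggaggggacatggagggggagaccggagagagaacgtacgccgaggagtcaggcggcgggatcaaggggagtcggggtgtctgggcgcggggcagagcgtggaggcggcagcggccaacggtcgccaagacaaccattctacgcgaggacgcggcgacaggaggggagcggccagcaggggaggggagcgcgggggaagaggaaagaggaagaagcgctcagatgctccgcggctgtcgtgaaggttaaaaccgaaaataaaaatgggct
CDKN2B: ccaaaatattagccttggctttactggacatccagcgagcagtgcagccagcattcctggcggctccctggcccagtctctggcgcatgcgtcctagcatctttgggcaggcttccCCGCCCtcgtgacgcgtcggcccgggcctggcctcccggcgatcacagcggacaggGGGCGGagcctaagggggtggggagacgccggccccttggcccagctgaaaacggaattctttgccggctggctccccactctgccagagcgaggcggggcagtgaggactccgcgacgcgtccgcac

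Partners of these inhibitors on other chromosomes lay near the all-gene median as a list. Of 12 analysed genes of the CDK4 and RB1 pathway, 0 were 1.5-fold higher and 0 1.5-fold lower, against 5.38% and 8.43% of all genes. In a list of this size, counts of 0 lie near those shares and are not read as a result. The median log2 ratio of the 11 genes above the floor on both arrays was 0.038. CDK4 stood at -0.11, CCND2, cyclin D2, at -0.42, RB1, the retinoblastoma protein, at 0.15 and E2F1, an S phase transcription factor, at 0.53.

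Protein turnover and traffic formed the group with every member measured, 17 of 17. VCP, the segregase that extracts ubiquitinated proteins, read 17785 in the clone and 11731 in the control, 1.52-fold higher. UBE2R2, a ubiquitin-conjugating enzyme, read 6063 in the clone and 3866 in the control, and KLHL9, a substrate adaptor of CUL3 ligases, 5001 and 3153 in the same order. All of these were at least 1.5-fold higher, although 1 of 3 KLHL9 probe sets was lower, at -0.24. PLAA, a ubiquitin-binding partner of VCP, had a log2 ratio of 0.45 and UBAP1, a subunit of the ESCRT-I sorting complex, 0.34. CHMP5, of the ESCRT-III complex, stood at 0.54, and BAG1, a co-chaperone that is read divergently from it, at 0.34.

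CDC37L1, a co-chaperone related to CDC37, was the other lower member, at 771.8 in the clone and 974.2 in the control, 0.792 times the control. Its other probe sets read 908.3 in the clone against 690.4 in the control, and 781.1 against 624.6. As for SMU1, the probe set used and the others disagreed in direction.

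Traffic genes were led by IFT74, a subunit of the intraflagellar transport complex of cilia, which read 1489 in the clone and 774.6 in the control, 1.92-fold higher. DENND4C, an activator of RAB10, read 3632 in the clone and 2192 in the control, and RANBP6, an importin-like protein, 3014 in the clone and 1858 in the control. Each was past 1.5-fold. CLTA, clathrin light chain A, read 23749 in the clone and 17520 in the control, and its 4 probe sets lay between 0.41 and 0.60. DCTN3, a dynactin subunit, stood at 0.54 and ERMP1, a metallopeptidase of the endoplasmic reticulum, at 0.52. A second ERMP1 probe set stood at -0.0225. The galactosyltransferase B4GALT1 stood at 0.15, and 2 further probe sets were under the floor in the clone alone. ZDHHC21, a palmitoyltransferase, showed how far probe sets of 1 gene can differ: 6 ran from -0.68 to 0.84, with 0.45 on the 1 used.

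Among metabolic genes, AK3, the adenylate kinase of the mitochondrial matrix, read 25439 in the clone and 15483 in the control, 1.64-fold higher. GRHPR, which reduces glyoxylate, read 5364 in the clone and 3260 in the control, with 3 probe sets between 0.72 and 0.83. GNE, the first enzyme of sialic acid synthesis, read 397.8 in the clone and 216.5 in the control, 1.84-fold higher, but the control signal was just above the floor. These 3 were the metabolic members past 1.5-fold. GALT, an enzyme of galactose use, had a log2 ratio of 0.47 and STOML2, a protein of the inner mitochondrial membrane, 0.48. Another GALT probe set stood at -0.10. GLDC, of the glycine cleavage system, read 431.7 in the clone and 423.8 in the control and hardly differed. PLIN2, a lipid droplet coat protein, read 212.7 in the clone and 203.1 in the control, at the floor, and has only a bound of at least 1.02-fold.

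SLC1A1, a neuronal glutamate and cysteine transporter, had the highest ratio, at 1243 in the clone and 549.7 in the control, 2.26-fold higher. Its second probe set read 165.4 in the clone, under the floor, and 318.0 in the control, so the probe sets disagreed. SHB, an adaptor of tyrosine kinase signalling, read 1978 in the clone and 1044 in the control, 1.89-fold higher, with 3 probe sets from 0.33 to 1.09. FOCAD, a focal adhesion protein, read 2773 in the clone and 1688 in the control, 1.64-fold higher. KANK1, an organiser of cortical actin, read 3706 in the clone and 2406 in the control, and another of its probe sets stood at -0.32. MPDZ, a scaffold with PDZ domains, and TLN1, talin, which links integrins to actin, had log2 ratios of 0.29 and 0.24.

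The SLC1A1 start window is shown as that of the member with the highest ratio. It lies at chr9:4490218-4490517 on the plus strand of GRCh38.p14 and holds GGGCGG or its reverse complement 3 times, in capitals.
SLC1A1: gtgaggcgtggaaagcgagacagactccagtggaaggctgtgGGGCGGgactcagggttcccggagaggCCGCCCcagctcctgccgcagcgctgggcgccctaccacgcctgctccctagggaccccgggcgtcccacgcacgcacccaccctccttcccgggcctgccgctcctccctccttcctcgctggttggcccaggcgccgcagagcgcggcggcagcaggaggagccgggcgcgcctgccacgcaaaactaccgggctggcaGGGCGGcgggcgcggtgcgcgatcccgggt

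JAK2, a kinase of cytokine receptors, read 703.3 in the clone and 626.0 in the control, 1.12-fold higher, and its second probe set read 348.6 in the clone and 355.2 in the control. Both lay below the median of the arm. CD274, the immune checkpoint ligand, was under the floor on both arrays, at 130.8 in the clone and 108.4 in the control on its brighter probe set. Of 11 measured partners of JAK2 and CD274, 0 were 1.5-fold higher and 3 were 1.5-fold lower, with the backgrounds of 5.38% and 8.43% given above: the transcription factor STAT5B at -1.12, and the feedback inhibitors SOCS3 at -1.18 and SOCS1 at -0.72. At least 2-fold lower were 2 of the 11, against 1.9% of genes, and the list's median log2 ratio was -0.29. JAK1, which pairs with JAK2 at several cytokine receptors, read 23663 in the clone and 23662 in the control.

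Other members under the floor on both arrays were GLIS3, a zinc-finger factor of the pancreas, PTPRD, a receptor phosphatase of synapses, SH3GL2, an endophilin of synaptic vesicles, and ELAVL2, a neuronal RNA-binding protein. On the brightest probe set of each, their signals ran from 9.1 to 145.1 in the clone and from 20.4 to 63.8 in the control, so no ratio is given. The type I interferon genes of the same arm were likewise dark: of 15 analysed, 0 were above the floor, with a highest signal of 175.6 in the clone and 175.5 in the control.

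Different probe sets of the same member give the only repeat measurement. The members had 174 probe sets, of which 121 cleared the floor on the clone and the control array; 106 were higher in the clone and 15 lower. In 23 of the 36 members with several such probe sets (63.9%) all were higher, against a background of 21.4% of 5387 genes. Short arm genes outside the list showed this as often, in 17 of 25 (68.0%). All were lower in 0 members and in 1 of those 25 genes (4.0%), against 23.8%. The remaining 13 members were mixed. The pooled SD between probe sets of a member was 0.33 on the log2 scale, over 36 members. The SD between the members' own ratios was 0.31, over 52 members. The first takes in dimmer probe sets and the second only the brightest of each member, so they are not like measures. Whether members differed beyond their probe sets was not tested. The pooled SD between probe sets over all genes was 0.35.

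**Figure D4:**
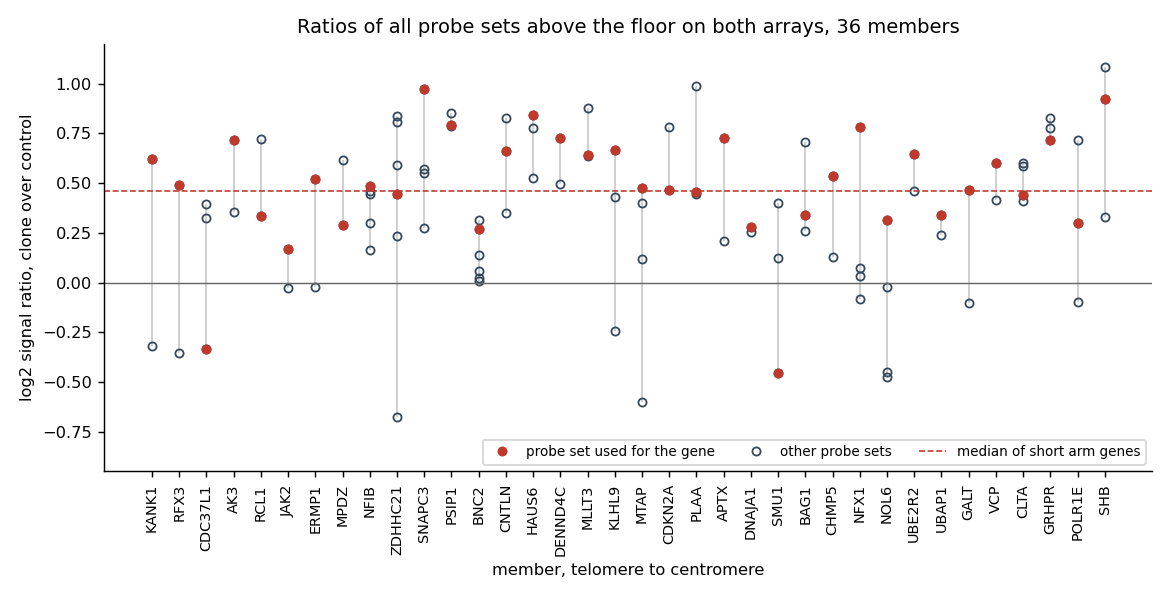
Log2 signal ratio, clone over control, of every probe set with both signals above the floor, for the 36 members with 2 or more, ordered from telomere to centromere. Filled circles are the probe set used for the gene, open circles the others, and the dashed line the median of the short arm genes, 0.46; in 23 members all circles lie above 0.

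Few members departed from the arm's own shift. The median over all 108 short arm genes was 0.46, and 3 of 52 members lay 1.5-fold or more from it: SLC1A1 above, and CDC37L1 and SMU1 below. Over all genes 11.2% lay that far from their own median. That share was not computed for the 56 other short arm genes, whose log2 ratios ran from -0.91 to 1.45. The members ran from -0.45 to 1.18, so the unlisted genes of the arm ranged wider. The list itself was chosen on these values. CDC37L1 and SMU1 departed on 1 of 3 probe sets each, and SLC1A1 on its only probe set with both signals above the floor. When each gene was given the median of its probe sets, NOL6 and SLC1A1 departed and CDC37L1 and SMU1 did not. Without probe sets of shared sequence, CDC37L1, KANK1, SHB and SLC1A1 departed and SMU1 did not. Of the 36 members with several probe sets, all lay above the arm's median in 7 (PSIP1, HAUS6, DENND4C, MLLT3, CDKN2A, UBE2R2 and GRHPR), all below it in 7 (CDC37L1, JAK2, BNC2, DNAJA1, SMU1, NOL6 and UBAP1) and on both sides of it in 22. No background share was computed for these counts, and they are not read as departures: the lowest probe sets of UBE2R2 and CDKN2A, at 0.46 and 0.47, lay at the median itself.

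Signal strength went with the ratio only weakly. Members with a mean signal under 1000 had a median log2 ratio of 0.22 (10 genes), those from 1000 to 5000 one of 0.51 (32) and those over 5000 one of 0.54 (10). Over all genes the medians in those ranges were -0.049, 0.031 and 0.018. Across the 52 members, which share both arrays, ratio and mean log2 signal had a Pearson r of 0.20 and a Spearman rho of 0.24. Probe sets with and without shared sequences had close medians, 0.44 over 48 and 0.45 over 73. Single members changed more. With shared probe sets left out, 38 of 43 members lay above the all-gene median. CDC37L1, GLDC, JAK2, KANK1 and NOL6 did not.

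Relatives of the members on other chromosomes lay near the all-gene median as a list. Of 24 family partners, 23 were above the floor on at least 1 array. Of these, 1 was 1.5-fold higher and 1 was 1.5-fold lower, against 5.38% and 8.43% of all genes. Neither count is read as a result. The median log2 ratio of the 21 partners above the floor on both arrays was 0.049. MLLT3 stood at 0.64 and its paralogue MLLT1 at 0.049, KANK1 at 0.62 and KANK2 at 0.12, and RFX3 at 0.49 and RFX1 at 0.033. Clathrin light chain CLTA stood at 0.44, whereas CLTB stood at -0.44 and the heavy chain CLTC at -0.14. The nuclear factor I family was spread out, with NFIB at 0.48, NFIA at 0.71, NFIC at 0.088 and NFIX at -0.84. TLN1 and TLN2 stood close together at 0.24 and 0.28, as did KDM4C and KDM4A at 0.028 and 0.032. Differences between members and their relatives were not tested.

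Start windows of 300 bases were on hand for 55 members. GGGCGG, an SP1-type box, was found on either strand in 41 of them (74.5%) and in 45.0% of all 35116 windows, and CCGGAAG, an ETS-type box, in 11 of the 55 and in 10.3% of all. CCAAT was found in 34.5% of the members' windows and 34.6% of all, and TATAAA in 9.09% and 11.5%. The members' windows were also richer in G and C, with a median of 66.0% and 25 CpG sites, against 58.7% and 14 over all windows, and the part of this in the motif counts was not tested. None of these motifs contains another, and a match is not a bound site. Windows overlap by 252 bases for APTX and DNAJA1, 160 for BAG1 and CHMP5 and 30 for TLN1 and CREB3. A site in a shared part counts for both members. All windows also outnumber the 19775 genes named on the array, so they are not a matched set. The 48 windows of members above the floor on both arrays had a median of 65.7% G and C, and the 7 others, PLIN2 included, 67.3%.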

How the data were processed

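Total RNA from 2 stably transfected SK-N-MC lines was hybridised to Affymetrix U133 Plus 2.0 arrays, 1 array per group, per the labels' protocols. The deposited values are linear intensity values, 1 per probe set and array, made with GCOS 1.3, as the submitters' processing notes name it; for the build and the summary algorithm, nothing is given in the sources used here. The arrays have the same trimmed mean, 1000.12 after removal of the lowest and highest 2% of probe sets, so a change shared by most transcripts cannot be seen.

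Probe sets were named from the 2016 platform annotation; of 54675, 41097 named 1 gene, 1801 more than 1, and 11777 were unnamed here. Symbols, chromosomes and gene order came from RefSeq (GRCh38.p14), which matched 41043 probe sets. A gene's value came from the probe set whose signal, averaged over both arrays, was highest. The floor was the 90th percentile, 208, of 191 probe sets whose genes belong to odorant or bitter taste receptor families or encode keratin-associated proteins of hair. A gene under it on both arrays was not measured; a value under it on 1 array was replaced by it. Ratios are clone over control, with no test, since each group had 1 array. No array was dropped, and precision is limited by there being 1 array per group.

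The members, lists and rules were chosen with earlier results of these data known. Both signals were given for members past 1.5-fold, members departing from the arm by that much, a member under the floor on 1 array and the 5 members with the highest signals. Other members are given by their ratio or within a range. For MTAP, JAK2, GLDC, CDKN2B and CD274 both signals are shown as well, outside that rule. Outside the list, MELTF, genes of the partner lists and up to 3 other short arm genes per direction were named. Figures were drawn with matplotlib 3.10.9, and Python 3.11.15 was used with scipy 1.17.1, pandas 2.3.3, numpy 2.4.6 and statsmodels 0.14.6, and the procedure was tested on simulated data. The alternatives changed the floor, the probe set chosen and the normalization.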

Additional observations from a re-analysis of the deposited data

How the results depend on the processing

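The 12 results were recomputed under 9 alternatives, chosen with the others above. The members' median relative to all genes lay between 0.46 and 0.51 on the log2 scale in all 9. It ran from 0.44 to 0.48 for the 20 members nearest the telomere, from 0.55 to 0.69 for the next 20 and from 0.44 to 0.53 for the 19 nearest the centromere. The median of the other short arm genes ranged from 0.075 to 0.46; the lowest value came with no floor, where 141 genes entered in place of 56. That of the rest of chromosome 9 ranged from 0.32, also with no floor, to 0.49. Scaling on the hybridisation spikes and on the poly-A spikes shifted the all-gene median by 0.50 and -0.61, which leaves relative values as they were and changes counts past a fixed fold. Members at least 1.5-fold higher then numbered 48 and 0, members at least 2-fold higher 25 and 0; on the poly-A spikes 2 members, CDC37L1 and SMU1, were at least 1.5-fold lower and 1, SMU1, was at least 2-fold lower. With no floor and 100 added to every signal, 1 member (PTPRD, under the floor on both arrays) was at least 1.5-fold lower and 8 of 59 departed from the arm. Without probe sets of shared sequence, 2 members (SHB and SLC1A1) were at least 2-fold higher. Shares over all genes were computed in the main setting only, so the changed counts have no background beside them. The cause of these changes was not tested beyond the construction of each setting. No paired analysis was possible because each group holds 1 array and the labels give the arrays different numbers.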

Other observations

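Among short arm genes that are not listed members, CCDC171 and SMARCA2 were among those whose several probe sets were all higher in the clone. CCDC171 read 3513 in the clone and 1718 in the control, and its 4 probe sets ran from 0.59 to 1.51 on the log2 scale. SMARCA2, an ATPase of the SWI/SNF chromatin remodelling complexes, read 3594 in the clone and 2021 in the control, with 4 probe sets from 0.41 to 0.83. PIGO, an enzyme of GPI anchor synthesis, read 1311 in the clone and 1454 in the control and was the only other short arm gene with several probe sets that were all lower.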
